A study of Macaca mulatta with 19 samples.

Results

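Progesterone synthesis was described through 7 genes of luteinized granulosa cells: SCARB1 (ENSMMUG00000016486), STAR (ENSMMUG00000013676), CYP11A1 (ENSMMUG00000003239), FDXR (ENSMMUG00000015648), HSD3B2 (ENSMMUG00000016568), NR5A1 (ENSMMUG00000014111) and NR5A2 (ENSMMUG00000016188). The genes were taken as the rows of the count table that carry these symbols, which gave 7 of the 32386 genes listed, and all 7 passed the filter on low counts. RNA was measured by polyA-selected sequencing in granulosa cells of rhesus macaques, taken from the periovulatory follicle of a controlled ovulation cycle. The 19 libraries form a factorial of steroid implant and diet, made to see how these cells respond to long-term testosterone, to a Western-style diet (WSD) and to their combination. WSD+T animals had a testosterone implant and the WSD (n = 6), WSD+C animals a cholesterol implant and the WSD (n = 5), Chow+T animals a testosterone implant and chow (n = 4), and Chow+C animals, the controls, a cholesterol implant and chow (n = 4). Every animal carried an implant, placed near menarche and kept for about 3.5 years, and testosterone stood 4 to 5 times above the cholesterol controls, per the labels. The oocyte of the same follicle was classed as metaphase II (MII) in 4 libraries, degenerating in 6, germinal vesicle (GV) in 1 and metaphase I (MI) in 8.

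Oocyte classes were spread unevenly over the treatments. WSD+T held 1 MII, 3 degenerating and 2 MI libraries, WSD+C 2 degenerating and 3 MI, Chow+T 2 MII, 1 degenerating and 1 GV, and Chow+C 1 MII and 3 MI. Libraries are written as the group and a replicate number, so that WSD+C 4 is replicate 4 of WSD+C. No sort of the aspirated cells is named, and in such bulk RNA fewer cells of a type and less RNA per cell cannot be told apart.

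Luteinizing granulosa cells turn cholesterol into progesterone in a short chain of steps that the midcycle luteinizing hormone surge switches on. SCARB1 takes up cholesterol from high-density lipoprotein at the cell surface, STAR moves it into the mitochondrion, and CYP11A1 cuts its side chain to make pregnenolone with electrons that FDXR passes on through ferredoxin. HSD3B2 then converts pregnenolone to progesterone, while NR5A1 (steroidogenic factor 1) and NR5A2 (liver receptor homolog 1) are nuclear receptors that bind the promoters of steroidogenic genes.

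Gene counts per library ranged from 28832132 to 56385679. In Chow+C 2, 49.1% of reads fell in genes and 17.9% of gene counts were mitochondrial, the lowest and highest values of the 19 libraries. Of the granulosa markers fixed for the check, 9 of 9 in the table were at 1 CPM (gene counts scaled to a fixed library total) or more in every library, and CYP17A1, the defining enzyme of theca cells, stayed between 0.30 and 2.44 CPM. WSD+C 4 stood apart. Its summed granulosa markers were the lowest at 3874 CPM. Their mean log2 CPM in WSD+C 4 was 7.278, inside the span from 6.757 (WSD+T 1) to 7.997 (WSD+C 1). The sum and the mean of the granulosa markers thus placed WSD+C 4 differently, and its share of granulosa cells was not tested. In WSD+C 4 the summed markers of red blood cells (101499 CPM), leukocytes (2254 CPM) and smooth muscle (2656 CPM) were each the highest. LHCGR, the luteinizing hormone receptor, had 0.42 CPM in WSD+C 4, 1.96 CPM in WSD+T 6 and 8.12 to 46.4 CPM in the other libraries. Leukocyte markers also summed to 2053 CPM in WSD+T 6, against at most 217 CPM in every library other than these 2, and RAC2 was at 0 in all of them.

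None of the 7 genes differed between treatment groups or between oocyte classes in edgeR's quasi-likelihood test, at a Benjamini-Hochberg adjusted p under 0.05 over all genes tested. Across all genes 0% passed in each of the 10 comparisons. At an unadjusted p under 0.05 the share of all genes was 3.86% to 14.3%, and again 0 of the 7 genes passed in any comparison. The lowest and highest CPM of each gene overlapped between groups in every pair compared. Overlap was not counted over all genes, so nothing particular to the 7 genes is read from it. What the genes did show was a spread over the 19 libraries that was wide for HSD3B2, STAR and CYP11A1 and narrow for the 2 receptors. The SD of log2 CPM was 2.07 for HSD3B2, 1.23 for STAR and 1.12 for CYP11A1, and 1.44, 0.95 and 0.78 without WSD+C 4. For SCARB1 it was 1.54 and without WSD+C 4 0.64, and for FDXR 0.77 and 0.63. The median SD over the genes tested was 0.55 with all libraries.

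**Figure D1:**
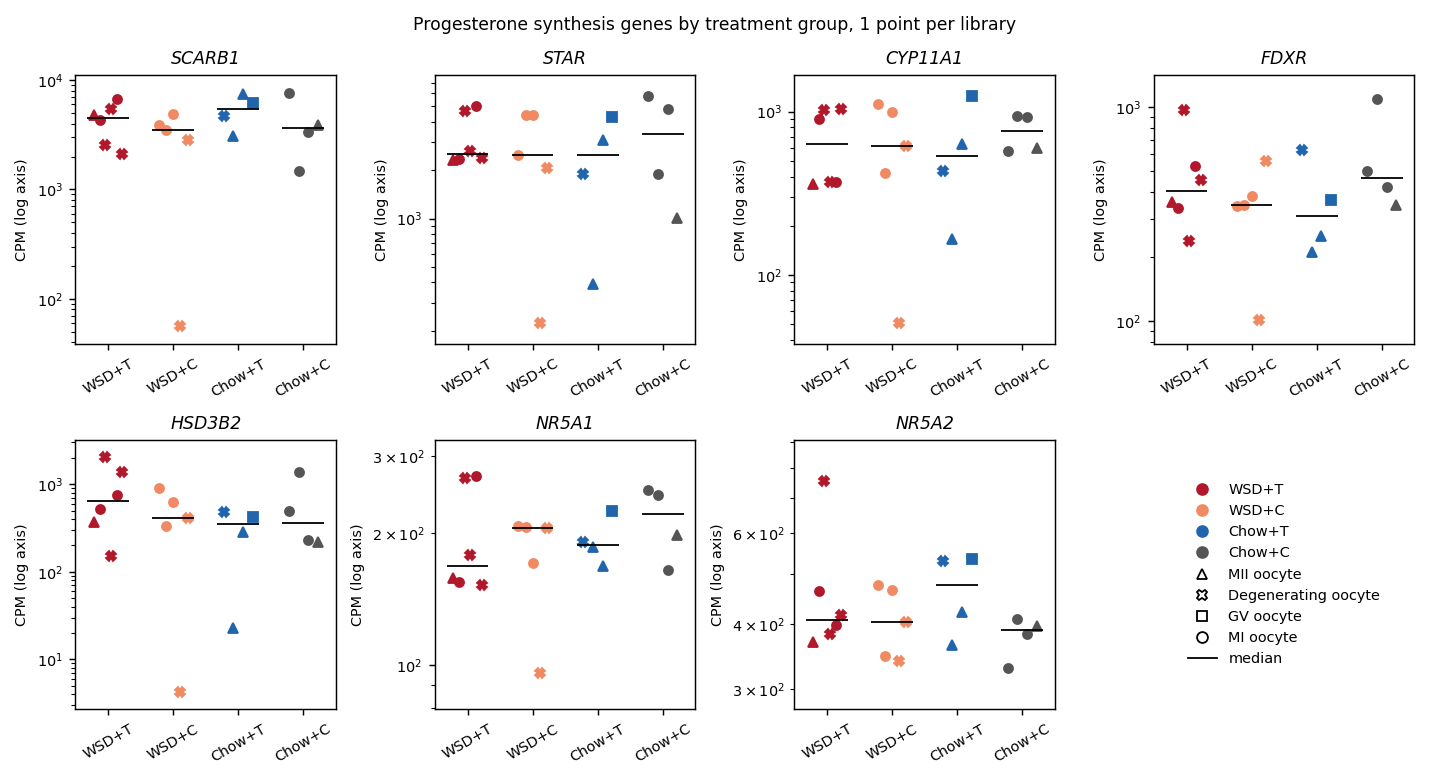
CPM (log axes) of the 7 genes in each of 19 libraries, by treatment group; colour gives the group, the symbol gives the oocyte class and the line is the group median. WSD+C 4 lies far below the other libraries for SCARB1 (56.6 CPM) and HSD3B2 (4.21 CPM), and the 4 groups overlap in every panel.

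SCARB1, the lipoprotein receptor, ranged from 2129.7 to 6700.3 CPM in WSD+T with a median of 4538 CPM. It read 3928, 3529, 4928, 56.6 and 2842 CPM in WSD+C 1 to 5. In Chow+T 1 to 4 it read 4749, 3107, 7535 and 6175 CPM, and in Chow+C 1 to 4 it read 7665, 1475, 3391 and 3855 CPM. WSD+C 4 was thus far under every other library, and the rest lay within 5.2-fold of each other. Group means were 4322 ± 1733 CPM in WSD+T (SD, n = 6), 3057 ± 1839 CPM in WSD+C (n = 5), 5391 ± 1901 CPM in Chow+T (n = 4) and 4097 ± 2593 CPM in Chow+C (n = 4), so that the order from high to low was Chow+T, WSD+T, Chow+C and WSD+C, with no neighbours farther apart than their SD. The testosterone effect averaged over both diets was a log2 fold change of 0.45 (95% confidence interval -0.60 to 1.5, adjusted p = 0.862 in edgeR). The diet effect averaged over both implants was -0.37 (-1.41 to 0.67, adjusted p = 0.924 in edgeR), and it was -0.21 without WSD+C 4.

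STAR, the cholesterol transporter whose action limits the rate of steroid synthesis, ranged from 2322 to 5018 CPM in WSD+T with a median of 2512 CPM. It read 2495, 4412, 4389, 224 and 2065 CPM in WSD+C 1 to 5. It read 1896, 394, 3076 and 4258 CPM in Chow+T 1 to 4, and 5808, 1887, 4778 and 1000.4 CPM in Chow+C 1 to 4. No WSD+T library was below 2322 CPM, whereas the lowest libraries of WSD+C, Chow+T and Chow+C were at 224, 394 and 1000.4 CPM. Means were 3226 ± 1261 CPM in WSD+T (SD, n = 6), 2717 ± 1758 CPM in WSD+C (n = 5), 2406 ± 1652 CPM in Chow+T (n = 4) and 3368 ± 2291 CPM in Chow+C (n = 4). Their order was Chow+C, WSD+T, WSD+C and Chow+T, and neighbours differed by less than their SD. The testosterone effect was -0.12 on the log2 scale (-1.15 to 0.91, adjusted p = 0.966 in edgeR) and the diet effect 0.06 (-0.97 to 1.08, adjusted p = 0.995).

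CYP11A1, the side-chain cleavage enzyme, ranged from 362 to 1039 CPM in WSD+T with a median of 636 CPM. It read 1121, 421, 995, 50.7 and 611 CPM in WSD+C 1 to 5. In Chow+T 1 to 4 it read 429.6, 165, 635 and 1249.9 CPM, against 573, 936, 925 and 598 CPM in Chow+C 1 to 4. The controls were the tightest group and lay inside the range of each of the others. Means were 678 ± 345 CPM in WSD+T (SD, n = 6), 639.6 ± 434 CPM in WSD+C (n = 5), 619.7 ± 462 CPM in Chow+T (n = 4) and 758 ± 199.6 CPM in Chow+C (n = 4). Chow+C had the highest mean, followed by WSD+T, WSD+C and Chow+T, and the neighbours differed by less than their SD. Fitted effects were small beside their errors, with a testosterone effect of -0.10 (-1.05 to 0.84, adjusted p = 0.968 in edgeR) and a diet effect of -0.06 (-1.0 to 0.89, adjusted p = 0.993).

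FDXR, the reductase that feeds electrons to CYP11A1, ranged from 236 to 969 CPM in WSD+T with a median of 406 CPM. It read 343, 349, 385, 101 and 561 CPM in WSD+C 1 to 5. It read 631, 211, 249.7 and 368 CPM in Chow+T 1 to 4, and 503, 1091, 424 and 350.0 CPM in Chow+C 1 to 4. The highest value of the series was in Chow+C 2, the library with the most mitochondrial counts; the part of that in its FDXR level was not tested. Means were 481 ± 259.7 CPM in WSD+T (SD, n = 6), 348 ± 164 CPM in WSD+C (n = 5), 365 ± 189.7 CPM in Chow+T (n = 4) and 592 ± 338 CPM in Chow+C (n = 4), an order of Chow+C, WSD+T, Chow+T and WSD+C with neighbours within their SD. On chow the fitted testosterone effect was -0.70 (-1.78 to 0.38, adjusted p = 0.768 in edgeR), and on the WSD it was 0.47 (-0.46 to 1.39, adjusted p = 0.999 in edgeR). The difference of these effects, the interaction, was 1.17 (-0.25 to 2.59, adjusted p = 0.933 in edgeR), and without Chow+C 2 it was 0.69. Without Chow+C 2 the effect on chow was -0.22, and without WSD+C 4 the effect on the WSD was 0.23.

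HSD3B2, which makes progesterone from pregnenolone, was the most variable of the 7. It ranged from 153 to 2052 CPM in WSD+T with a median of 639 CPM, and read 901, 333, 630.3, 4.21 and 408 CPM in WSD+C 1 to 5. In Chow+T 1 to 4 it read 487, 22.8, 283 and 425 CPM, and in Chow+C 1 to 4 it read 490.4, 1379, 228 and 220.1 CPM. The highest libraries were WSD+T 3 at 2052 CPM, WSD+T 6 at 1393 CPM and Chow+C 2 at 1379 CPM, and the lowest were WSD+C 4 and Chow+T 2. Means were 875 ± 716 CPM in WSD+T (SD, n = 6), 455 ± 335 CPM in WSD+C (n = 5), 305 ± 206 CPM in Chow+T (n = 4) and 579 ± 548 CPM in Chow+C (n = 4), which ordered the groups as WSD+T, Chow+C, WSD+C and Chow+T with each step smaller than the SD. The interaction was 1.87 (-1.06 to 4.80, adjusted p = 0.939 in edgeR) and the fitted fold of WSD+T over Chow+T was 2.87, a log2 change of 1.52 (-0.60 to 3.64, adjusted p = 0.868 in edgeR). Without Chow+C 2 the interaction was 0.99, and without WSD+C 4 it was 1.56.

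HSD3B1, the near-identical copy of HSD3B2 that in humans serves mainly placenta and skin, received 0 to 15 reads per library where HSD3B2 received 179 to 104949. Reads that match both copies equally well are uncertain, since multimapping reads (7.03% to 18.3% of all reads) were set aside in the deposited counts. The HSD3B2 value of WSD+C 4 rested on 179 reads, the fewest behind any value of the 7 genes. FDX1, the ferredoxin between FDXR and CYP11A1, was not analysed here.

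NR5A1, the receptor named steroidogenic factor 1, ranged from 152 to 269.8 CPM in WSD+T with a median of 168 CPM. It read 208, 207, 171, 96.0 and 205 CPM in WSD+C 1 to 5. It read 191, 186, 168 and 225 CPM in Chow+T 1 to 4, and 252, 245, 165 and 199 CPM in Chow+C 1 to 4. All libraries but WSD+C 4 lay within 1.77-fold of each other. Means were 197 ± 56.5 CPM in WSD+T (SD, n = 6), 177 ± 48.0 CPM in WSD+C (n = 5), 193 ± 23.8 CPM in Chow+T (n = 4) and 215 ± 40.9 CPM in Chow+C (n = 4), in the order Chow+C, WSD+T, Chow+T and WSD+C with neighbours within their SD. The testosterone effect was -0.01 (-0.36 to 0.35, adjusted p = 0.996 in edgeR) and the diet effect -0.12 (-0.48 to 0.23, adjusted p = 0.926).

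NR5A2, the receptor named liver receptor homolog 1, ranged from 371 to 756 CPM in WSD+T with a median of 408 CPM. It read 475, 348, 465, 339 and 405 CPM in WSD+C 1 to 5. It read 531, 365, 423 and 534 CPM in Chow+T 1 to 4, and 329, 409.7, 384 and 396 CPM in Chow+C 1 to 4. This was the only one of the 7 genes that WSD+C 4 did not have at its lowest, and its highest library was WSD+T 3. Means were 465 ± 146 CPM in WSD+T (SD, n = 6), 407 ± 63.5 CPM in WSD+C (n = 5), 463 ± 83.3 CPM in Chow+T (n = 4) and 379.7 ± 35.5 CPM in Chow+C (n = 4), an order of WSD+T, Chow+T, WSD+C and Chow+C in which no step exceeded the SD. The testosterone effect of 0.24 (-0.08 to 0.56, adjusted p = 0.786 in edgeR) had the smallest unadjusted p of the 7 genes for that effect. It was positive on both diets, at 0.29 (-0.19 to 0.77) on chow and 0.19 (-0.22 to 0.61) on the WSD, and the averaged interval ended at 0.56 on the log2 scale. On the WSD, WSD+T 3 stood at 756 CPM. The other WSD+T libraries, at 371 to 465 CPM, lay inside the WSD+C range of 339 to 475 CPM.

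Read across the genes, the comparisons with controls share the same 4 Chow+C libraries and are given side by side. For WSD+T against Chow+C, where 6.75% of all genes had an unadjusted p under 0.05 and 0 of the 7 did, 3 of 7 log2 fold changes were positive and the median was -0.06, against a median of -0.00087 over all genes. For WSD+C against Chow+C (5.08% of all genes, 0 of 7) 1 of 7 was positive, with a median of -0.31 against 0.02 over all genes. Without WSD+C 4 that comparison had 2 of 7 positive and a median of -0.03. For Chow+T against Chow+C (7.18% of all genes, 0 of 7) 2 of 7 were positive, SCARB1 and NR5A2, with a median of -0.29 against -0.02. Under the WSD, testosterone (WSD+T against WSD+C, 3.86% of all genes, 0 of 7) gave 7 of 7 positive values with a median of 0.25 against -0.00022. This count leaned on WSD+C 4: without it 4 of 7 were positive, the median was 0.14, STAR was at -0.05, CYP11A1 at -0.21 and NR5A1 at -0.0047. Diet under testosterone (WSD+T against Chow+T, 4.97% of all genes, 0 of 7) gave 6 of 7 positive values and a median of 0.13 against 0.04, and without WSD+T 3 it gave 3 of 7 and -0.01.

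The averaged effects were as flat. For testosterone (6.31% of all genes, 0 of 7) 3 of 7 genes were positive with a median of -0.01, and for diet (6.87% of all genes, 0 of 7) 3 of 7 with a median of -0.06. Over all genes these medians were -0.02 and 0.01. The interaction (4.52% of all genes, 0 of 7) was positive in 6 of 7 genes with a median of 0.38 against 0.01 over all genes, and without WSD+C 4 in 5 of 7 with a median of 0.16. With 1 library left out at a time, the positive genes numbered 2 to 6 of 7 for testosterone (6 without Chow+T 2) and 1 to 4 of 7 for diet (1 without WSD+T 3). The intervals of the averaged effects reached 1.5 for SCARB1 under testosterone and 2.05 for HSD3B2 under the diet on the log2 scale.

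**Figure D2:**
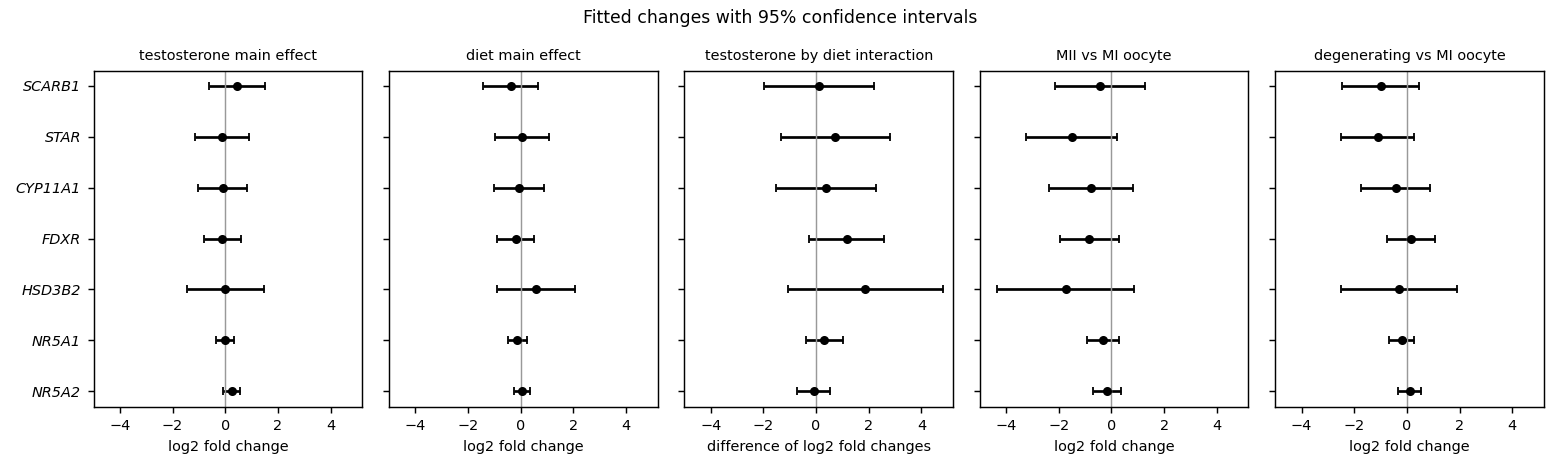
Fitted log2 fold changes (points) with 95% confidence intervals (bars) of the 7 genes for the averaged testosterone and diet effects, their interaction and both oocyte comparisons. All intervals hold 0; those of HSD3B2 are the widest in every panel, and those of NR5A1 and NR5A2 the narrowest.

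The oocyte classes asked whether the genes differ with the state of the egg from the same follicle, with treatment group as a term in the fit. Against MI follicles, MII follicles had lower fitted values for all 7 genes, with a median log2 fold change of -0.77 against -0.01 over all genes, and none passed the test (3.91% of all genes had an unadjusted p under 0.05). Several lists of markers of other cells were higher in fitted value in the same comparison. Of the oocyte markers tested, 6 of 7 were positive (median 5.32, 4 with an unadjusted p under 0.05). So were 9 of 9 leukocyte (median 2.13), 7 of 7 red cell (2.06), 6 of 6 smooth muscle (1.32) and 9 of 9 macrophage markers (0.91). Theca and stroma markers were flat (2 of 7 positive, median -0.04), and endothelial markers were split (2 of 4 positive, median 0.34). Of all these markers 0 passed the adjusted threshold. Oocyte markers summed to 2.87 to 15.8 CPM in MII and 2.51 to 21.6 CPM in MI libraries, and leukocyte markers to 25.7 to 132 CPM in MII and 5.42 to 62.5 CPM in MI libraries. With the leukocyte score added to the fit, 0 of the 7 genes were positive and the median was -0.48. The part of the other markers in these values was not tested. STAR read 2322, 394, 3076 and 1000.4 CPM in the MII libraries WSD+T 1, Chow+T 2, Chow+T 3 and Chow+C 4, and 1887 to 5808 CPM with a median of 4400.5 CPM in the 8 MI libraries. These ranges overlapped, and the fitted STAR change was -1.51 (-3.24 to 0.22, adjusted p = 1 in edgeR). HSD3B2 averaged 225 ± 149 CPM in MII (SD, n = 4) and 655 ± 364 CPM in MI libraries (n = 8), a fitted change of -1.74 (-4.33 to 0.86, adjusted p = 1 in edgeR). CYP11A1 averaged 439.7 ± 219.7 CPM in MII (n = 4) and 780.1 ± 284 CPM in MI (n = 8), and its fitted change was -0.77 (-2.36 to 0.82). FDXR averaged 292 ± 73.7 CPM in MII and 495 ± 252 CPM in MI libraries, a fitted change of -0.84 (-1.95 to 0.28).

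The remaining genes were closer between MII and MI. SCARB1 averaged 4815 ± 1936 CPM in MII (SD, n = 4) and 4491 ± 1954 CPM in MI libraries (n = 8), so its means ran opposite to the fitted change of -0.43 (-2.14 to 1.29), which was 0.10 without the treatment term. NR5A1 averaged 178 ± 18.2 CPM in MII and 209 ± 43.4 CPM in MI, and NR5A2 389 ± 26.8 CPM in MII and 409 ± 55.5 CPM in MI. Their fitted changes were -0.32 (-0.91 to 0.27) and -0.18 (-0.71 to 0.35).

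Follicles with a degenerating oocyte were then set against MI follicles, a comparison in which 14.3% of all genes had an unadjusted p under 0.05 and 0 of the 7 did. STAR averaged 2312 ± 1430.4 CPM in degenerating (SD, n = 6) and 3889.7 ± 1447 CPM in MI libraries (n = 8), a fitted change of -1.11 (-2.49 to 0.27, adjusted p = 0.439 in edgeR), and of -0.67 without WSD+C 4. SCARB1 averaged 2968 ± 1935 CPM in degenerating and 4491 ± 1954 CPM in MI libraries, with a fitted change of -0.99 (-2.45 to 0.47, adjusted p = 0.504 in edgeR) and of -0.57 without WSD+C 4. CYP11A1 at -0.43 (-1.73 to 0.88), HSD3B2 at -0.30 (-2.50 to 1.91) and NR5A1 at -0.20 (-0.68 to 0.28) were also negative with it. Without WSD+C 4 they were 0.04, 0.30 and -0.01. FDXR at 0.15 (-0.77 to 1.07) and NR5A2 at 0.10 (-0.33 to 0.54) were positive.

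Markers of other cells stood higher in the degenerating class, most of all in a few of its libraries. All 9 tested leukocyte markers and all 9 tested macrophage markers had positive fitted changes and an unadjusted p under 0.05 in edgeR, with medians of 5.53 and 5.35 on the log2 scale. Red cell markers (7 of 7 positive, 4 with an unadjusted p under 0.05) and smooth muscle markers (6 of 6 positive, 4) stood higher as well, and 0 of these markers passed the adjusted threshold. Leukocyte markers summed to 8.57 to 2254 CPM with a median of 136 CPM in degenerating libraries, and to 5.42 to 62.5 CPM with a median of 16.6 CPM in MI libraries. The highest sums were those of WSD+C 4 and WSD+T 6. Beyond a fit with the leukocyte score, their part in the values of the 7 genes was not tested. WSD+T 6, with 2053 CPM of leukocyte markers, had 1039 CPM of CYP11A1 and 1393 CPM of HSD3B2, and WSD+C 4, with 2254 CPM, had 50.7 and 4.21 CPM. Adding the leukocyte score to the fit gave changes of 0.40 for HSD3B2 and 0.015 for NR5A1 in degenerating against MI follicles. With that score 4 of the 7 genes were positive and the median was 0.015, against 2 of 7 and -0.30 without it.

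**Figure D3:**
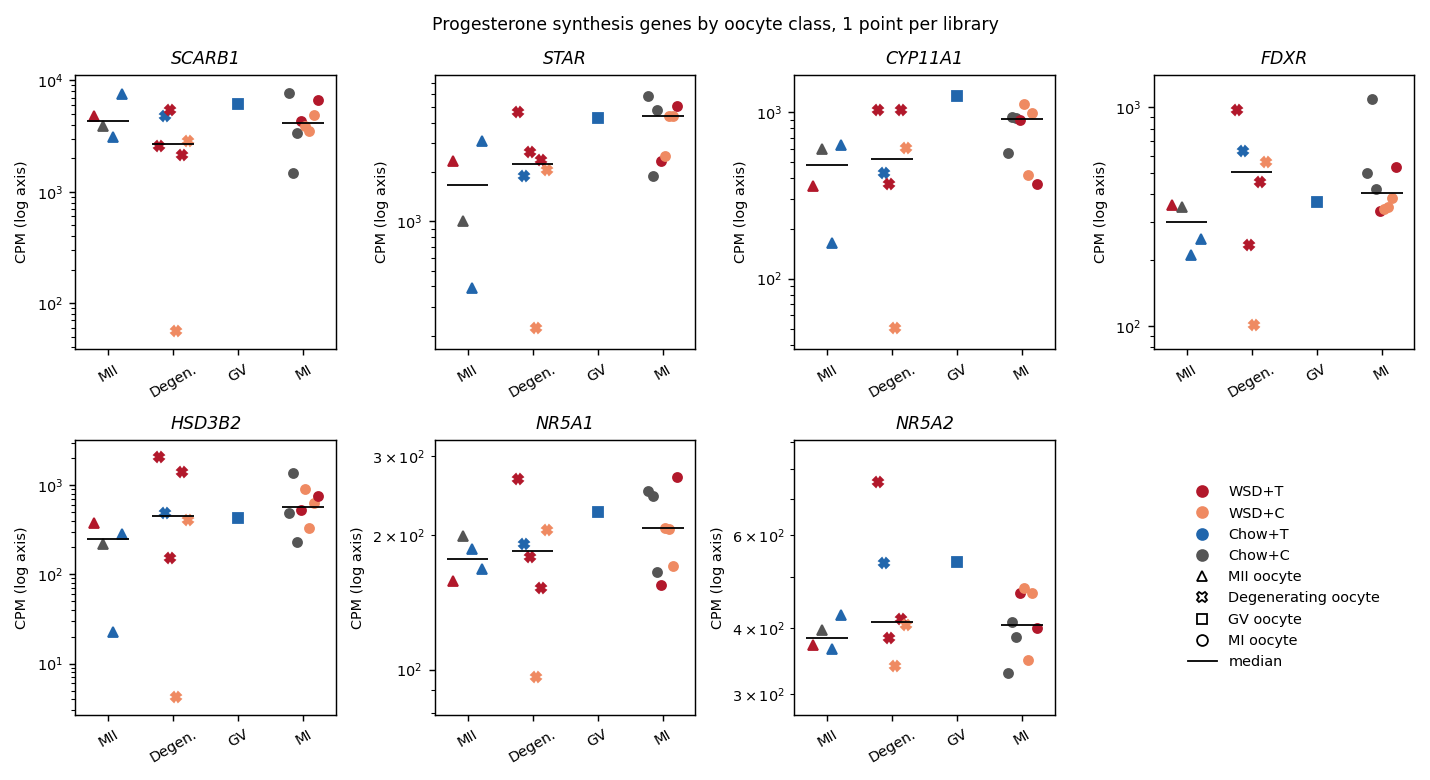
CPM (log axes) of the 7 genes by oocyte class; colour gives the treatment group, the symbol gives the class and the line is the class median, with the single GV library shown without one. For STAR the MII libraries spread from 394 to 3076 CPM and the MI libraries from 1887 to 5808 CPM.

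The single GV library, Chow+T 4, has no replicate and entered no oocyte test. It had the highest CYP11A1 value of the series, 1249.9 CPM, beside 4258 CPM of STAR, 6175 CPM of SCARB1 and 425 CPM of HSD3B2.

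The genes differed in how far animals spread. From the lowest to the highest of the 19 libraries HSD3B2 spanned 487-fold, SCARB1 135-fold, STAR 25.9-fold, CYP11A1 24.6-fold, FDXR 10.8-fold, NR5A1 2.81-fold and NR5A2 2.30-fold. Without WSD+C 4 the spans were 89.8-fold for HSD3B2, 14.7-fold for STAR, 7.60-fold for CYP11A1, 5.2-fold for SCARB1, 5.18-fold for FDXR, 1.77-fold for NR5A1 and 2.30-fold for NR5A2. Among the genes tested, whose median SD of log2 CPM was 0.55, the SD of HSD3B2 (2.07) stood at the 96.3rd percentile, SCARB1 (1.54) at 91.5, STAR (1.23) at 85, CYP11A1 (1.12) at 81.5 and FDXR (0.77) at 65.8. The receptors were at the other end, NR5A1 (0.35) at 26.7 and NR5A2 (0.28) at 15.4. Without WSD+C 4 the SD was 1.44 for HSD3B2, 0.95 for STAR, 0.78 for CYP11A1, 0.64 for SCARB1, 0.63 for FDXR, 0.28 for NR5A2 and 0.27 for NR5A1, so the place of SCARB1 rested on that library. Treatment groups held between 6.98% (CYP11A1) and 17.3% (SCARB1) of the variance of log2 CPM, or between 5.33% (NR5A1) and 21.6% (HSD3B2) without WSD+C 4. Oocyte classes held between 10.7% (NR5A1) and 27.2% (STAR), given as a description. None of these shares was corrected for the number of groups or classes, and labels set at random would also hold a share.

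Low libraries were largely the same for the mitochondrial and enzyme steps. WSD+C 4 was the lowest library for 6 of 7 genes. The next lowest was Chow+T 2 for STAR, CYP11A1, FDXR and HSD3B2, Chow+C 2 for SCARB1 and WSD+T 6 for NR5A1. Chow+T 2 had 3107 CPM of SCARB1 and 186 CPM of NR5A1, inside the range of the other libraries.

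Correlations of log2 CPM were taken over the 19 libraries for all 21 pairs of genes, with 100000 permutations, two-sided, and adjustment over the 21 pairs; the labels give no batch. Pearson's r was positive for 21 of 21 pairs, from 0.195 to 0.871. By r 10 pairs and by Spearman's rho 4 pairs had an adjusted p under 0.05. Pairs over all genes were not counted, so nothing particular to the progesterone synthesis genes is read from these counts. Each of the 21 pairs was then taken without the 2 libraries farthest from the median of its first gene. That is the gene listed earlier at the opening of the Results, such as FDXR for FDXR with HSD3B2. There r was positive for 16 of 21 pairs, the lowest being -0.252 for SCARB1 with FDXR. Past the threshold remained 1 pair, HSD3B2 with FDXR. Its r was 0.846 (permutation p = 1e-05, the smallest possible, adjusted p = 0.00021), its rho 0.682 (permutation p = 0.0018, adjusted p = 0.019), and its r 0.724 without WSD+C 4 and Chow+C 2 (adjusted permutation p = 0.031). With treatment group means subtracted, r was 0.855.

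Other pairs rested more on the low libraries. CYP11A1 with HSD3B2 had the highest r, 0.871 (permutation p = 7e-05, adjusted p = 0.00073), with a rho of 0.646 (permutation p = 0.0033, adjusted p = 0.023), but r was 0.493 without WSD+C 4 and Chow+T 2 (adjusted permutation p = 0.16). STAR with CYP11A1 had an r of 0.74 (permutation p = 0.0019, adjusted p = 0.0081) and a rho of 0.295 (permutation p = 0.22, adjusted p = 0.37), and r was 0.088 without the same 2 libraries, so the relation rested on them. STAR with HSD3B2 had an r of 0.787 with all libraries (adjusted permutation p = 0.0071) and of 0.133 without those 2. CYP11A1 with NR5A2 ran by rank instead, with a rho of 0.749 (permutation p = 0.00038, adjusted p = 0.008) and an r of 0.53 (permutation p = 0.031, adjusted p = 0.051). Without WSD+C 4 and Chow+T 2 its rho was 0.691. HSD3B2 with NR5A2 had a rho of 0.614 (permutation p = 0.0061, adjusted p = 0.032) and an r of 0.527 (permutation p = 0.034, adjusted p = 0.051). NR5A1 with NR5A2 was weak at r = 0.346 (permutation p = 0.14, adjusted p = 0.16) and rho = 0.188.

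**Figure D4:**
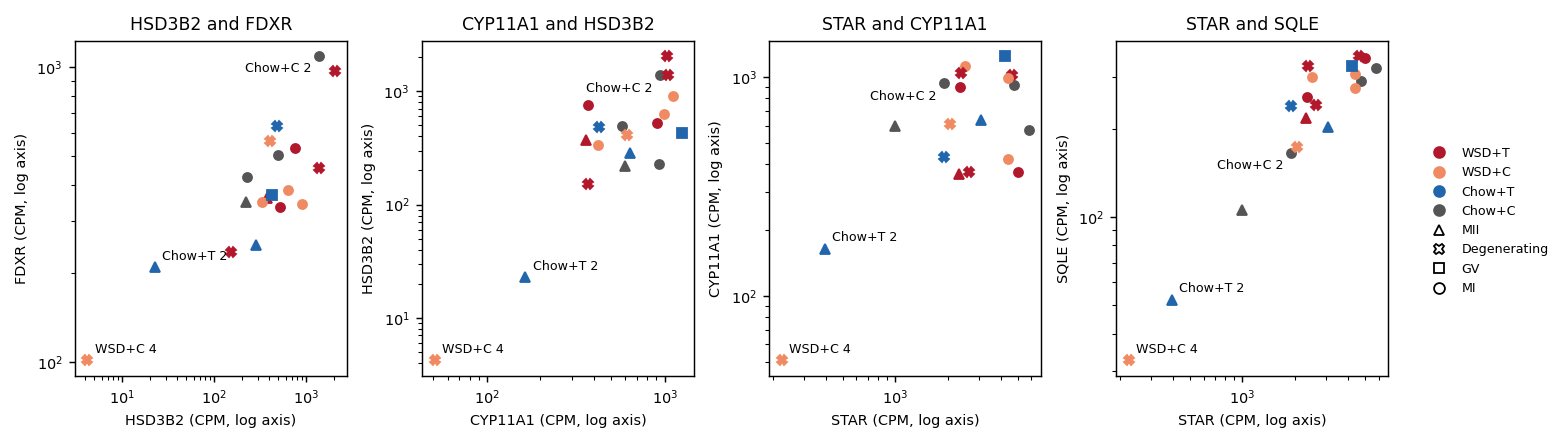
CPM of 3 pairs of the genes and of STAR with SQLE, 1 point per library on log axes; colour gives the treatment group and the symbol the oocyte class. FDXR and HSD3B2 go together also without WSD+C 4 and Chow+C 2, while STAR and CYP11A1 do so through WSD+C 4 and Chow+T 2.

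The genes whose log2 CPM was most like each of the 7 were found among 11171 genes by Pearson's r over the 19 libraries, as a description. For SCARB1 they were PTTG1IP (r = 0.975, and 0.916 without WSD+C 4), TGFBR3 (0.970 and 0.868) and SND1 (0.961 and 0.818). For STAR they were SQLE, squalene epoxidase (0.956 and 0.920), FDFT1, squalene synthase (0.947 and 0.905), and MVD, mevalonate diphosphate decarboxylase (0.946 and 0.909). These 3 were also the nearest without WSD+C 4, when NR5A2 kept 2 of its 3 nearest genes, SCARB1 and HSD3B2 kept 1 each, and CYP11A1, FDXR and NR5A1 kept 0. SQLE ran from 32.5 CPM in WSD+C 4 to 353 CPM in WSD+T 3, with a median of 256 CPM.

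For CYP11A1 the nearest were HAO2 (r = 0.885, and 0.727 without WSD+C 4), MMAB (0.871 and 0.718) and HSD3B2 itself (0.871 and 0.717). For HSD3B2 they were HAO2 (0.932 and 0.844), EREG, an EGF-like ligand of the ovulatory follicle (0.92 and 0.828), and C10orf32 (0.914 and 0.80). HAO2 lies next to HSD3B2 with 0 annotated genes between them in the RefSeq assembly T2T-MMU8v2.0, and its level was low, 0.14 to 15.2 CPM. These libraries carry no strand, so reads that run past one gene into its neighbour cannot be told apart from that neighbour's own.

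For FDXR the near genes included PMM1 (r = 0.908, and 0.853 without WSD+C 4) and mml-mir-503 (0.902 and 0.845). For NR5A1 they included PAPOLA (0.80 and 0.686) and CMAS (0.797 and 0.582). For NR5A2 they were ANKMY1 (0.835 and 0.825), OXA1L (0.808 and 0.844) and SLC35F5 (0.793 and 0.799).

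Ratios of reads within a library put genes of neighbouring steps side by side; since gene lengths were not used, only differences between libraries are read from them. STAR reads per SCARB1 read were 0.487, 0.127, 0.408 and 0.26 in the MII libraries WSD+T 1, Chow+T 2, Chow+T 3 and Chow+C 4, and 0.541 to 1.41 with a median of 0.824 in the 8 MI libraries. All 4 MII libraries thus lay below all 8 MI libraries. The mean log2 ratio differed by -1.64 (exact permutation test, two-sided, p = 0.00404, the smallest these group sizes allow). Adjusted over the 28 tests of 4 ratios in 7 pairs of groups, added after the values were seen, this exact p was 0.113, and no other test had an unadjusted p under 0.05. The ratio in degenerating libraries ran from 0.399 to 3.96 and overlapped both. Of the 4 MII libraries 2 were Chow+T and none of the MI libraries was, so the oocyte class and the treatment cannot be fully told apart in this ratio.

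NR5A2 reads per NR5A1 read averaged 2.42 ± 0.56 in WSD+T (SD, n = 6), 2.44 ± 0.72 in WSD+C (n = 5), 2.41 ± 0.34 in Chow+T (n = 4) and 1.83 ± 0.44 in Chow+C (n = 4). The control mean was the lowest, and each treated group overlapped it. The exact permutation p against Chow+C was 0.133 for WSD+T, 0.222 for WSD+C and 0.0857 for Chow+T (two-sided, adjusted p = 0.712, 0.712 and 0.666). By oocyte the ratio averaged 2.21 ± 0.27 in MII (n = 4), 2.67 ± 0.56 in degenerating (n = 6) and 2.06 ± 0.62 in MI libraries (n = 8). Its extremes were 3.53 in WSD+C 4 and 1.31 in Chow+C 1.

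**Figure D5:**
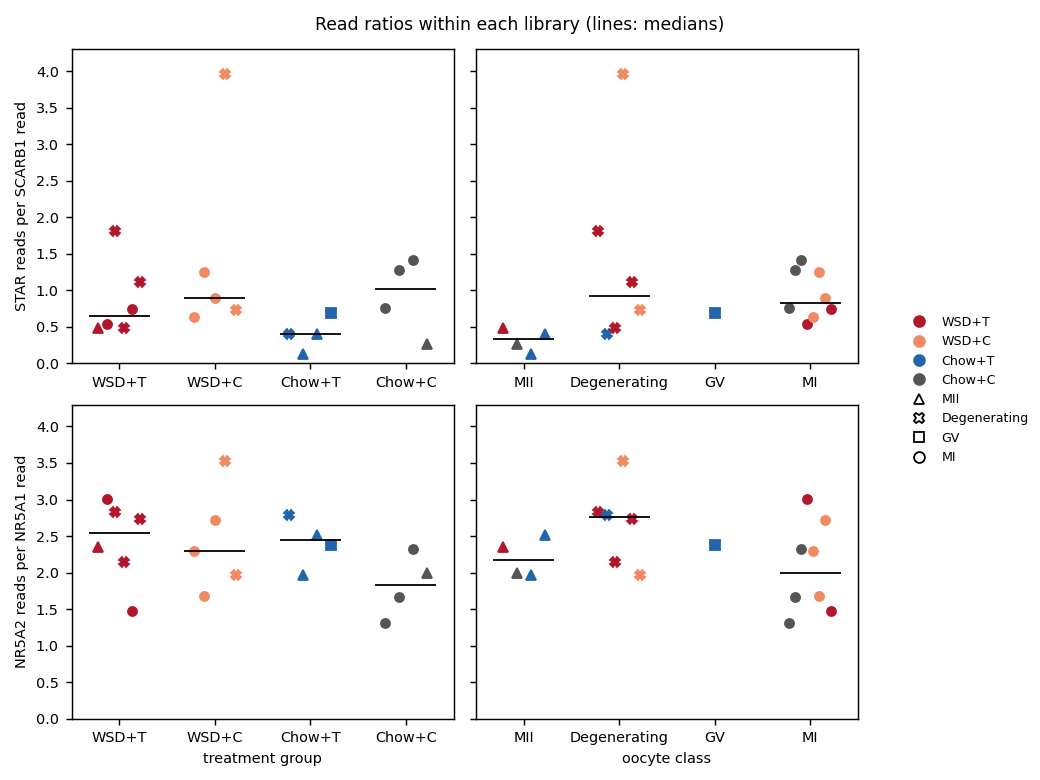
STAR reads per SCARB1 read and NR5A2 reads per NR5A1 read in each library, by treatment group and by oocyte class; colour gives the treatment, the symbol the oocyte class and the line the median. The 4 MII libraries (0.127 to 0.487) lie below the 8 MI libraries (0.541 to 1.41) in the STAR to SCARB1 ratio.

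Genes around the pathway were described through 4 lists. None of their members passed the adjusted threshold in any of the 10 comparisons. Of 12 cholesterol delivery genes, which take up, free and move the cholesterol used for steroids, 12 had a positive testosterone effect with a median of 0.31, against -0.02 over all genes, and 0 had an unadjusted p under 0.05 (6.31% of all genes did). Without WSD+C 4, 11 of 12 were positive and the median was 0.19. Macrophage markers stood higher with the same effect (9 of 9 positive, median 2.26, 3 with an unadjusted p under 0.05 and 0 past the adjusted threshold). They summed to 9.75 to 2599 CPM with a median of 19.9 CPM in the 10 testosterone libraries and to 10.6 to 313 CPM with a median of 17.5 CPM in the 9 cholesterol libraries, the highest being WSD+T 6, and their part in the list was not tested. LIPA, the lysosomal acid lipase that frees cholesterol from esters, had the smallest p of the list for that effect, with a log2 fold change of 0.51 (-0.02 to 1.04, adjusted p = 0.767 in edgeR). It read 1407 CPM in WSD+T 6 and 286 to 564 CPM in the other 18 libraries, and its effect without WSD+T 6 was 0.27. INSIG1, which holds back cholesterol synthesis when sterol is plentiful, had a fitted change of -1.02 in MII against MI follicles (-1.73 to -0.31, adjusted p = 1 in edgeR).

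Of 12 tested genes of steroid conversion and electron transfer, 0 had a positive change in MII against MI follicles, with a median of -0.52 against -0.01 over all genes, and 1 had an unadjusted p under 0.05 (3.91% of all genes did). Leaving out WSD+C 4 gave 2 of 12 positive and a median of -0.58, and adding the leukocyte score to the fit gave 4 of 12 positive and a median of -0.17. The gene with that p was H6PD, which makes NADPH in the endoplasmic reticulum, at -0.81 (-1.39 to -0.23, adjusted p = 1 in edgeR). CYP19A1, the aromatase that makes estradiol, had a fitted change of -1.54 in degenerating against MI follicles (-3.01 to -0.08, adjusted p = 0.328 in edgeR), and of -1.20 without WSD+C 4.

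Of 22 tested gonadotropin, cyclic AMP and transcription regulators, 11 had a positive change in degenerating against MI follicles and 1 had an unadjusted p under 0.05, a share of the list below the 14.3% of all genes. NR4A3, an orphan nuclear receptor induced by luteinizing hormone, had a fitted change of 2.47 (1.08 to 3.86, adjusted p = 0.164 in edgeR). Its adjusted p was 0.00204 with DESeq2, 0.0228 without the treatment term and 0.0461 without Chow+T 1, so its call depended on these settings. Without WSD+C 4 the NR4A3 change was 1.945 (adjusted p = 0.753 in edgeR). NR4A3 read 2.78 to 12.9 CPM in degenerating libraries and 0.37 to 2.41 CPM in MI libraries. In the MII libraries WSD+T 1, Chow+T 2, Chow+T 3 and Chow+C 4 it read 1.77, 24.4, 20.4 and 2.53 CPM. Its highest values thus lay outside the degenerating class. PPARGC1A, a coactivator of mitochondrial genes, had a testosterone effect of -0.98 (-1.76 to -0.21, adjusted p = 0.767 in edgeR). Its level was low, from 0.58 CPM in WSD+T 2 to 4.91 CPM in Chow+C 2. The effect was -0.81 without Chow+C 2 and -1.03 without WSD+C 4.

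Of 7 progesterone action genes, 0 had a positive change in degenerating against MI follicles, with a median of -0.34 against 0.02 over all genes, and 0 had an unadjusted p under 0.05 (14.3% of all genes did). Leaving out WSD+C 4 gave 2 of 7 positive and a median of -0.18. PGRMC1, a membrane-associated progesterone receptor component, was at -0.37 (-0.87 to 0.13, adjusted p = 0.47 in edgeR). PAQR7, a membrane progestin receptor, had a diet effect of 0.44 (0.07 to 0.81, adjusted p = 0.701 in edgeR).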

How the data were processed

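Granulosa RNA of 19 macaques was sequenced as polyA-selected, non-directional TruSeq libraries, per the labels' protocols. The authors deposited 1 table of unnormalized counts, reads per gene, with 4 further rows that count ambiguous (1.62% to 2.25% of reads), multimapping (7.03% to 18.3%), no-feature (18.3% to 33.5%) and unmapped reads (1.46% to 3.92%); these were left out of library sizes. Per the submitters' processing notes, the tools were Trimmomatic (trimming) and STAR (alignment). Their versions, the build and the annotation: not given in the sources used here. No coordinates or sequences are therefore printed.

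The count tests ran under edgeR 4.0.16 (R 4.3.3). After filterByExpr (counts of at least 10, totals of at least 15) and TMM scaling, tests were two-sided robust quasi-likelihood tests with Benjamini-Hochberg adjustment over 15019 genes (treatment fit, 19 libraries) or 14976 genes (oocyte fit, 18 libraries without the GV library, with the treatment group as a term), at a threshold of 0.05. CPM are TMM-scaled; log2 CPM used a prior count of 1. Intervals are 95% confidence intervals. The common biological coefficient of variation was 0.583, far above counting error at these depths, and reads carry no molecular identifiers. DESeq2 1.42.0 and limma 3.58.1 (voom) were alternatives, beside other scaling, no filter, a leukocyte covariate, oocyte class as a covariate, no treatment term and leaving out libraries.

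The submitters call the libraries biological replicates, each with its own animal number in the labels; replicate numbers follow the order of samples and pair nothing. Members, lists and tests were chosen with earlier results of these data known. Named genes are the 7 members, the 3 genes of highest r with each (mean log2 CPM of at least 0; for FDXR and NR5A1 not all are reported here), the 2 genes of smallest p per pathway list over the averaged effects and oocyte comparisons, and HSD3B1, CYP19A1, LHCGR and CYP17A1 as checks.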

Additional observations from a re-analysis of the deposited data

Results flagged for a closer look

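A library was listed where its gap to the nearest other library of its group, on the log2 scale, took more of the group's range than Dixon's 95% critical value allows. Of 49 sets of libraries examined (7 genes in 7 groups or classes) 10 met this, and chance gives about 1 in 20, or 2.45. WSD+C 4 accounted for 8 of them. SCARB1 in WSD+C 4 was at 56.6 CPM, against 2842 to 4928 CPM in the other WSD+C libraries and 2129.7 to 5456 CPM in the other degenerating libraries. STAR in WSD+C 4 was at 224 CPM, against 2065 to 4412 CPM in the other WSD+C and 1896 to 4662 CPM in the other degenerating libraries. CYP11A1 was at 50.7 CPM there, against 369 to 1039 CPM in the other degenerating libraries. FDXR was at 101 CPM against 343 to 561 CPM, HSD3B2 at 4.21 CPM against 333 to 901 CPM, and NR5A1 at 96.0 CPM against 171 to 208 CPM, each beside the other WSD+C libraries.

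At the high end, FDXR was at 1091 CPM in Chow+C 2, against 336 to 531 CPM in the other MI libraries. NR5A2 was at 756 CPM in WSD+T 3, against 371 to 465 CPM in the other WSD+T libraries.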

How the results depend on the processing

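None of the 7 genes was past the threshold in any comparison under any alternative: the smallest adjusted p was 0.323 over 1316 values with 1 library left out and 0.274 over 490 values under the other alternatives. Directions were less stable: 89 of the 1316 (over 28 results) and 41 of the 490 (over 22 results) had the opposite sign, and the cause was not tested. No paired analysis was possible because the replicate numbers follow the order of samples and pair no libraries across groups. The fewest reads behind a value of the 7 genes were 179. The parts of depth, of differences between animals and of cell mix in the lack of calls were not tested.

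Leaving out 1 library at a time gave these ranges of log2 fold change where a sign turned. Chow+T against Chow+C: CYP11A1 -0.88 to 0.030. WSD+C against Chow+C: SCARB1 -0.70 to 0.076, STAR -0.61 to 0.093, CYP11A1 -0.55 to 0.050 and HSD3B2 -0.75 to 0.54. WSD+T against Chow+C: SCARB1 -0.20 to 0.57, STAR -0.37 to 0.34 and FDXR -0.62 to 0.18. WSD+T against WSD+C: STAR -0.048 to 0.49, CYP11A1 -0.21 to 0.38 and NR5A1 -0.0047 to 0.21. WSD+T against Chow+T: CYP11A1 -0.19 to 0.73, NR5A1 -0.076 to 0.11 and NR5A2 -0.18 to 0.080. The testosterone effect: STAR -0.33 to 0.082, CYP11A1 -0.40 to 0.056, FDXR -0.31 to 0.12, HSD3B2 -0.21 to 0.45 and NR5A1 -0.083 to 0.040. The diet effect: STAR -0.12 to 0.27, CYP11A1 -0.21 to 0.24, FDXR -0.34 to 0.056 and NR5A2 -0.040 to 0.090. The interaction: SCARB1 -0.40 to 0.38. Degenerating against MI: CYP11A1 -0.70 to 0.040, FDXR -0.23 to 0.47, HSD3B2 -0.65 to 0.30 and NR5A2 -0.046 to 0.21. The STAR to SCARB1 ratio of MII against MI stayed between -1.90 and -1.26.

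Other settings turned these signs. With RLE size factors the HSD3B2 testosterone effect was -0.0069, and -0.0069 with DESeq2. Without the filter NR5A2 was -0.0063 in WSD+T against Chow+T and the NR5A1 testosterone effect 0.0018. With limma-voom STAR was 0.17 in WSD+T against Chow+C and 0.055 for testosterone, NR5A1 -0.013 and NR5A2 -0.031 in WSD+T against Chow+T, and FDXR -0.16 in degenerating against MI. With the leukocyte covariate STAR was 0.42 and CYP11A1 0.22 in WSD+T against Chow+C, and SCARB1 0.14 in WSD+T against Chow+T. The covariate also gave testosterone effects of 0.18 for STAR, 0.13 for CYP11A1 and 0.062 for NR5A1, a diet effect of 0.095 for CYP11A1, and degenerating against MI values of 0.40 for HSD3B2 and 0.015 for NR5A1. Without both WSD+C 4 and WSD+T 6, CYP11A1 was 0.050 in WSD+C against Chow+C, -0.37 in WSD+T against WSD+C, -0.029 in WSD+T against Chow+T, 0.010 for diet and -0.078 for the interaction. The same omission gave 0.012 for STAR in WSD+T against Chow+C, -0.25 for the HSD3B2 testosterone effect, -0.071 for the SCARB1 interaction, and 0.18 for HSD3B2 and 0.059 for NR5A1 in degenerating against MI. With oocyte class as a covariate STAR was 0.29 in Chow+T against Chow+C, 0.60 in WSD+T against Chow+C and 0.56 for testosterone. That covariate gave -0.017 for NR5A1 and -0.025 for NR5A2 in WSD+T against Chow+T, testosterone effects of 0.038 for FDXR and 0.094 for NR5A1, diet effects of 0.042 for CYP11A1 and -0.0054 for NR5A2, and -0.052 for the SCARB1 interaction. Without the treatment term SCARB1 was 0.10 in MII against MI, and FDXR -0.0096 and HSD3B2 0.19 in degenerating against MI.

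Over all genes edgeR called 0 in every comparison. DESeq2 called 4 in Chow+T against Chow+C, 3 in WSD+T against Chow+C, 4 in WSD+T against Chow+T, 3 for testosterone, 5 for diet, 3 for the interaction, 6 in MII against MI and 801 in degenerating against MI. Degenerating against MI gave 574 without the treatment term and 0 to 226 with 1 library left out (226 without Chow+T 1), and the diet effect 0 to 1 (1 without Chow+C 4). Of the 10 pairs of genes past the threshold by r, 1 was past it without the 2 farthest libraries. With group means subtracted 12 pairs were past it, 9 of them among those 10.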
